A study of Mus musculus with 16 samples.

Results

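The regions described here are all the H2Bub1 peaks that were called on the 19 autosomes in Atxn7l3-/- mouse embryonic stem cells (mESCs) and in Atxn7l3-/- mouse embryonic fibroblasts (MEFs). Every autosomal peak of each list was taken, with no choice by height or width. They numbered 75966, of which 47869 came from mESCs and 28097 from MEFs, out of 138510 H2Bub1 peaks and 245648 peaks of any kind on the assembled chromosomes of the whole series. The series held 16 samples, of which 8 had a peak list, 4 for H2Bub1 and 4 for RNA polymerase II (Pol II). Each combination of cell type, genotype and antibody was 1 library.

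Both KO groups carried a null allele of Atxn7l3, from which LoxP-flanked exons had been removed, on a mixed DBA/2 and C57BL/6 background. The mESCs were derived from single blastocysts, were grown on feeder cells for their first passages and were then kept without feeders in serum with LIF, PD0325901 and CH99021. The MEFs were grown from the carcasses of E10.5 embryos, and the Atxn7l3-/- cultures contained many rounded cells. WT cells of each type, processed alike, were the controls. With 1 library in each group no test across samples could be made, so the intervals given below (95%, exact) cover counting within a list only. The peak lists do not give the sequencing depth, and the H2Bub1 read counts published with the study were not used.

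H2Bub1 is histone H2B carrying a single ubiquitin. The E3 ligase pair RNF20/RNF40 deposits it on gene bodies while Pol II transcribes, and the deubiquitylation module of SAGA, in which ATXN7L3 and ENY2 activate USP22, removes it, as do the related enzymes USP27X and USP51 when bound to ATXN7L3. Cells without ATXN7L3 therefore lack the cofactor that these enzymes share, and the position of their H2Bub1 shows where the mark is present in its absence. In mESCs the transcribed genes include those of the pluripotency network, whereas fibroblasts transcribe genes of the extracellular matrix and of the contractile cytoskeleton.

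A protein-coding gene was taken to carry H2Bub1 when at least 1 bp of its body lay in a peak. Of 20807 autosomal genes, 12922 (62.1%) carried H2Bub1 in Atxn7l3-/- mESCs and 11289 (54.3%) in Atxn7l3-/- MEFs. In the WT lists 11592 (55.7%) and 6586 (31.7%) did. Both KO lists covered 10468 genes (50.3%), the mESC list alone covered 2454 (11.8%), the MEF list alone covered 821 (3.95%) and 7064 were in neither. The promoters of 4 genes, which illustrate the genes marked in 1 cell type and the genes marked far more fully in 1 of the cell types, are printed here because the classes differed in promoter composition. Grik3, which encodes a kainate receptor subunit, and Rbms3, which encodes an RNA-binding protein, were among the genes with the most covered bases in mESCs only and in MEFs only. The annotated start of Rbms3 had no Pol II promoter peak and no peak over the position 500 bp into the gene in KO MEFs, so the printed sequence is that of the annotated start and not of one seen in use there. Prr7, which encodes a membrane protein, and Flrt2, a membrane protein that binds FGF receptors, were among the genes present in both lists with the largest difference of covered share. Each sequence is the RefSeq record of GRCm38.p6, runs 5′ to 3′ from 250 bases before the start to 50 bases after it and has its CG dinucleotides in capitals. They lie at chr4:125490446-125490745 (plus strand), chr9:117629864-117630163 (minus strand), chr13:55464017-55464316 (plus strand) and chr12:95691976-95692275 (plus strand), in this order.
Grik3: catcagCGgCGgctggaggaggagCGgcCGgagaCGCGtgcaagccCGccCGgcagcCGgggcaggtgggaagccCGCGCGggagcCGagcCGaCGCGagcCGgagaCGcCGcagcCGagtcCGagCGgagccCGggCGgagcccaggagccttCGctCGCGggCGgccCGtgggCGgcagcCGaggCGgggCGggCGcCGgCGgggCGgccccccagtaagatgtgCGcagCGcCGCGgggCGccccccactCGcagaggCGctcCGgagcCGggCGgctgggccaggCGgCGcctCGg
Rbms3: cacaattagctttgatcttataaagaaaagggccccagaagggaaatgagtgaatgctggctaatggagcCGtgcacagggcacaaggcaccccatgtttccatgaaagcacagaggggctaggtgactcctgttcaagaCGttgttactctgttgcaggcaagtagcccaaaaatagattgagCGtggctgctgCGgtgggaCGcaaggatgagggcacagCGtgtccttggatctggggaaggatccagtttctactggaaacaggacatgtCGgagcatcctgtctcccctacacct
Prr7: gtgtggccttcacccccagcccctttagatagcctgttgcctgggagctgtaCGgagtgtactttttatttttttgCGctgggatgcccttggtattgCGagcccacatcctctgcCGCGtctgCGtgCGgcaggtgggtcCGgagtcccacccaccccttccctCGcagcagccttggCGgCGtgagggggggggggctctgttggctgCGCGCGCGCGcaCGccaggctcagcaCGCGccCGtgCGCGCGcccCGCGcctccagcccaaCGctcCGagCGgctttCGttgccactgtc
Flrt2: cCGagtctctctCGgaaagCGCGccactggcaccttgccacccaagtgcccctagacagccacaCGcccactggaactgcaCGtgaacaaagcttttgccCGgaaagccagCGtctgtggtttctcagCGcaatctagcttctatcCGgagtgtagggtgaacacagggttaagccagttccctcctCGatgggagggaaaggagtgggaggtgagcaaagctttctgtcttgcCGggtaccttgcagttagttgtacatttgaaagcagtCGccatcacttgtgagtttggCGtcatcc

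The Grik3 promoter held 50 CG dinucleotides and 82.0% G+C, against 7 and 52.0% in that of Rbms3. Prr7 had 29 and 67.7%, and Flrt2 had 14 and 55.3%. The motif TATAAA was searched on both strands, and of the 4 promoters only that of Rbms3 contained it. Over all autosomal genes, read in the same 300-base window from the genome, the median G+C share was 57.0% (56.3 to 57.3) where only KO mESCs carried H2Bub1 and 53.0% (52.3 to 54.3) where only KO MEFs did, between the 60.3% of genes in both lists and the 47.0% of genes in neither. The ratio of observed to expected CG dinucleotides reached 0.6 in 34.9% of the promoters of the first class and 33.8% of the second, with overlapping intervals, compared with 72.5% for genes in both and 45.5% of all promoters. The intervals of the single-cell-type classes (33.0 to 36.9% and 30.6 to 37.2%) lay below that of genes in both (71.7 to 73.4%), whichever the cell type. TATAAA was present in 9.78% of the promoters of genes in KO mESCs only, 13.9% in KO MEFs only, 6.41% in both and 23.0% in neither, and in 12.7% of all promoters.

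The MEF list had fewer peaks but covered more of the genome. Peaks covered 148.8 Mb (6.04% of the autosomes) in Atxn7l3-/- mESCs and 219.2 Mb (8.90%) in Atxn7l3-/- MEFs, a ratio of 1.47. In the WT lists the order was opposite, with 71.3 Mb in mESCs and 47.9 Mb in MEFs and a ratio of 0.671. The median peak was 1357 bp wide (1342 to 1374) in KO mESCs and 2788 bp (2726 to 2849) in KO MEFs. Peaks over 10 kb made up 6.39% of the mESC peaks and 38.4% of their bases, whereas they made up 21.1% of the MEF peaks and 71.9% of their bases. The difference in covered length was thus one of wide domains. The peaks were low in both lists, with a median fold over the local background of 2.56 in mESCs and 2.32 in MEFs, and weighted by width the mean fold was 3.13 and 3.69.

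The ratio of covered length was above 1 on every autosome apart from chromosome 11, the most densely covered in both lists, where peaks took up 13.7% in KO mESCs and 13.1% in KO MEFs (ratio 0.957). It was highest on chromosomes 18 (2.02) and 13 (2.01). The bases covered in mESCs had a mean G+C share of 48.8%, those covered in MEFs of 45.0%. Gene bodies, which made up 40.3% of the autosomes, held 89.1% of the mESC bases and 95.3% of the MEF bases.

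The lists shared 98.2 Mb, which was 66.0% of the mESC bases and 44.8% of the MEF bases. Of the 121.0 Mb covered in KO MEFs alone, 85.5% lay in genes that carried H2Bub1 in both lists. The extra MEF length thus lay mostly within genes with at least 1 bp of H2Bub1 in mESCs, and only 9.56% of it lay in other genes. This split rests on the 1 bp call. Tshz1, with 0.092 kb in KO mESCs and 72.6 kb in KO MEFs, counts as a gene of both lists. A call at 10% of the gene body put 2010 genes instead of 821 in MEFs only, and the split was not measured at that call. Gene records that span other genes, such as those of Gm20388 and Fgfr2, also count here. Of the 50.5 Mb covered in KO mESCs alone, 55.6% lay in genes of both lists, 20.7% in other genes and 23.7% outside gene bodies. In number of peaks, 55.6% of the mESC peaks (55.2 to 56.1) and 51.9% of the MEF peaks (51.3 to 52.4) overlapped a peak of the other list. This near-equality depended on the setting, with 38.6% and 94.9% at equal covered length and 50.1% and 31.9% when 50% of the peak had to overlap.

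Peaks that touched no protein-coding gene body were more frequent in KO mESCs. They numbered 6358 (13.3% of the mESC peaks, 9.63 Mb in all) against 1194 (4.25%, 3.60 Mb) in KO MEFs. The WT lists showed the same order, with 10.2% in mESCs and 2.08% in MEFs. Most lay over 5 kb from any protein-coding gene, 72.8% in KO mESCs and 64.8% in KO MEFs, and of these 28.6% and 52.8% lay in an annotated noncoding gene. Over the whole set, an annotated noncoding gene overlapped 25.7% of those of KO mESCs and 42.4% of those of KO MEFs. They were small, with a median width of 927.5 bp in KO mESCs and 1260 bp in KO MEFs, and 11.7% and 36.1% of them overlapped a peak of the other KO list.

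At the 10468 genes of both lists, H2Bub1 covered more of the gene body in MEFs. The median covered share was 37.4% (36.5 to 38.5) in Atxn7l3-/- mESCs and 52.9% (52.0 to 54.2) in Atxn7l3-/- MEFs, and the median covered length was 6.60 kb and 9.29 kb. The share was larger in MEFs at 6461 genes (61.7%, 60.8 to 62.7), equal at 542 and smaller at 3465, with a median difference of 6.46 percentage points (5.87 to 7.18). Across these genes the shares of the 2 lists had a Spearman correlation of 0.604, which is a description over genes that share a library and a genome sequence. At the 6006 of these genes with a Pol II peak at the promoter in both KO Pol II lists the medians were 43.5% and 59.6%. At the 6024 genes present in all 4 H2Bub1 lists the KO medians were 46.1% and 65.5%, and the WT medians were 20.8% and 16.2%. Hence at the same genes the larger share was on the MEF side in the KO lists and on the mESC side in the WT lists.

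**Figure D1:**
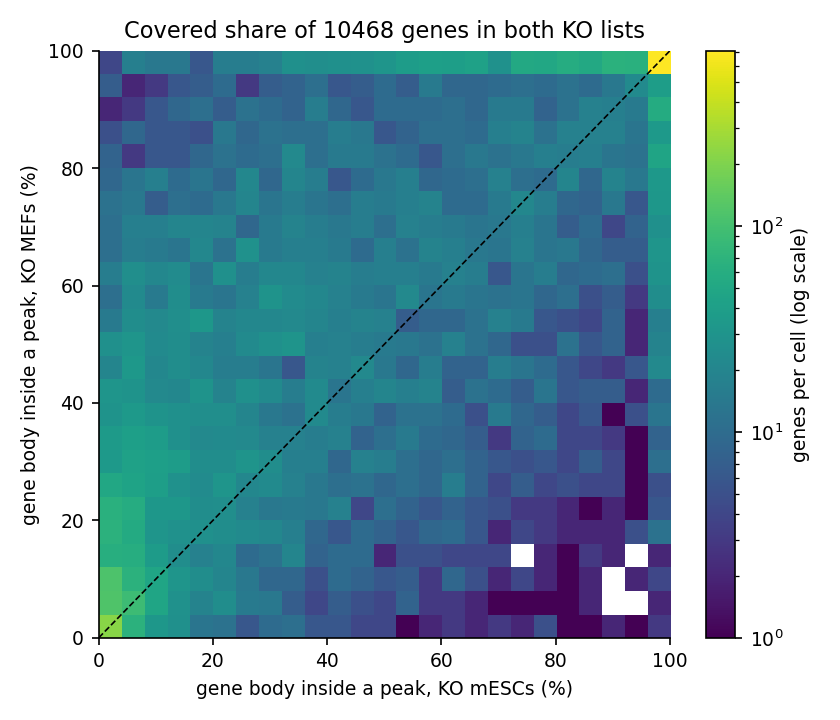
Covered share of the gene body (%) in Atxn7l3-/- mESCs (x axis) and in Atxn7l3-/- MEFs (y axis) for the genes with H2Bub1 in both lists, with the number of genes in each cell of the grid in colour on a log scale and the diagonal dashed. More genes lie above the diagonal (6461) than below it (3465).

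A difference of 25 percentage points or more, counted over all 20807 genes, was found with the larger share in MEFs at 3232 genes (15.5%) and with the larger share in mESCs at 1848 genes (8.88%). These percentages are the background for the gene groups described below.

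The difference was larger in long genes than in short ones. Below 5 kb, gene bodies were almost filled in both lists, with median shares of 97.4% in KO mESCs and 100% in KO MEFs. Between 20 and 50 kb the medians were 30.6% and 45.2%, between 50 and 100 kb they were 19.4% and 45.1%, and above 100 kb they were 8.55% (7.28 to 9.81) and 31.7% (29.4 to 34.6). In length, the median gene above 100 kb had 14.7 kb of H2Bub1 in KO mESCs and 51.7 kb in KO MEFs. The total length within genes of 5 to 20 kb was nearly equal, 24.2 Mb and 24.5 Mb, whereas genes above 100 kb held 42.6 Mb in mESCs and 94.5 Mb in MEFs. The percentage of genes carrying H2Bub1 was nevertheless higher in mESCs in each of the 5 length classes, from 40.7% against 32.7% below 5 kb to 77.6% against 68.2% between 50 and 100 kb. This holds for the call at 1 bp, and over all genes the order turned with peaks of a −log10 q of at least 3 and with a call at 10% of the gene body, where more genes were in MEFs only (1930 and 2010) than in mESCs only (1007 and 1695).

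**Figure D2:**
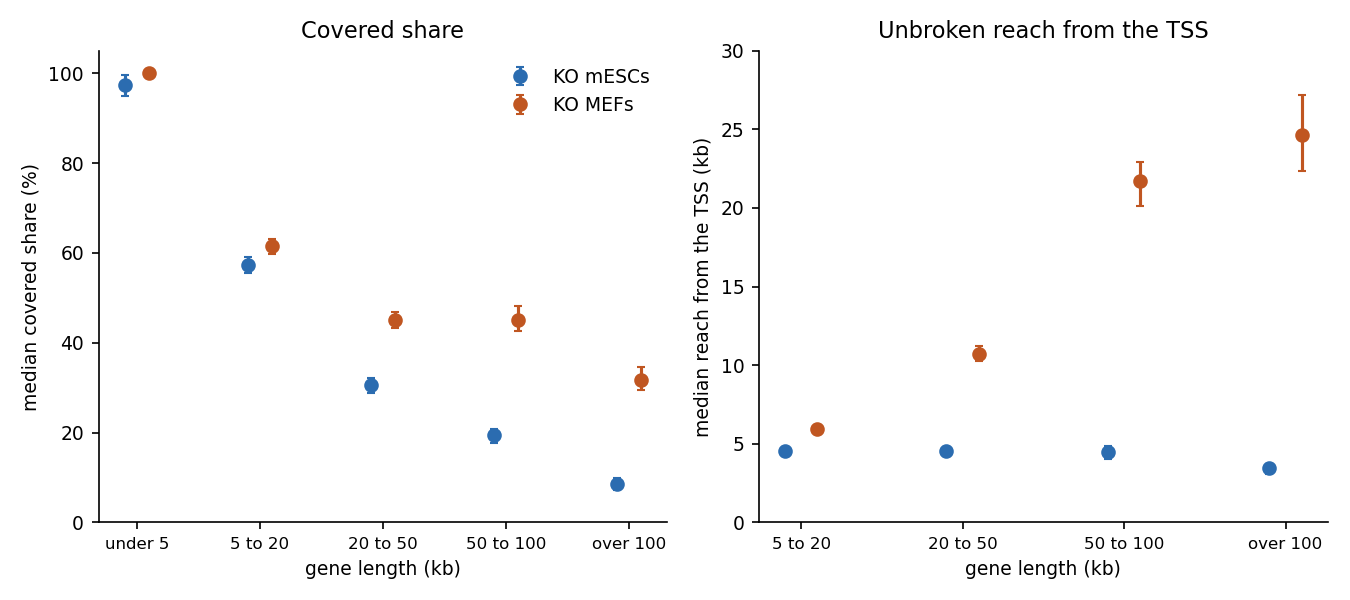
Left, median covered share of the gene body (%) by gene length (kb) for the genes in both KO lists. Right, median unbroken reach of H2Bub1 from the TSS (kb) by gene length. Points are medians and bars their 95% intervals, with KO mESCs in blue and KO MEFs in orange. The covered shares part from 97.4% against 100% below 5 kb to 8.55% against 31.7% above 100 kb, and the reach from 4.54 kb against 5.91 kb to 3.45 kb against 24.7 kb.

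Base composition moved with the same comparison. Genes of at least 5 kb in both lists were put into 3 groups of equal size by the G+C share of the gene body, a split chosen after seeing the data. In the G+C-poorest group the median covered share was 13.9% in KO mESCs and 46.6% in KO MEFs, and 92.0% of the genes had the larger share in MEFs. In the middle group the medians were 34.4% and 47.3%, with 65.9% of the genes larger in MEFs. In the G+C-richest group the order turned, with medians of 63.2% in mESCs and 53.6% in MEFs and 35.5% of the genes larger in MEFs. The turn was present within each length class, where the percentage of genes larger in MEFs went from 89.1% to 33.8% at 5 to 20 kb, from 91.8% to 36.0% at 20 to 50 kb and from 93.3% to 42.7% above 50 kb. The mESC medians thus spanned a wider range over the 3 groups than the MEF medians did. Whether this came from the cells or from the G+C response of the individual libraries cannot be told apart with 1 library of each.

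Along the gene, H2Bub1 was densest at the 5′ end in both cell types and extended farther in MEFs. Each body of the 9361 genes of at least 5 kb in both lists was divided into 20 equal parts. In the first part, mean coverage was 75.7% in KO mESCs and 83.4% in KO MEFs, in the tenth it was 36.2% and 50.1%, and in the last it was 23.2% and 19.4%. Coverage dropped below 50% of its highest value in part 9 in mESCs and in part 13 in MEFs. The ratio of the last 4 parts to the first 4 was 0.397 in mESCs and 0.298 in MEFs. With peaks of a −log10 q of at least 3 this order turned, with 0.238 in mESCs and 0.244 in MEFs. In genes above 100 kb the coverage of the tenth part was 15.1% in mESCs and 37.4% in MEFs. The last kb before the TSS was covered to 42.9% and 42.3%, and the first kb beyond the annotated gene end, taken here as the TES, to 19.2% and 18.5%. These near-equal means average over length classes in which the order differed, since the last kb before the TSS was covered to 48.0% in mESCs and 44.9% in MEFs in genes of 5 to 20 kb and to 34.0% and 36.5% in genes above 100 kb.

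**Figure D3:**
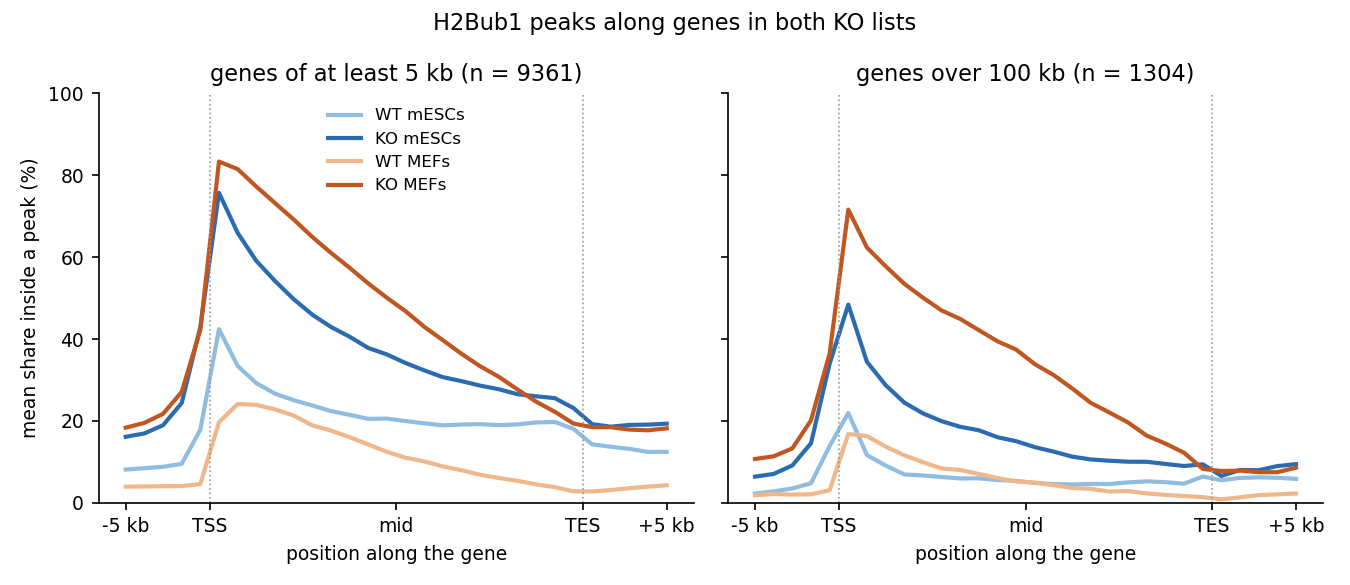
Mean share inside an H2Bub1 peak (%) from 5 kb upstream of the TSS through 20 equal parts of the gene body to 5 kb past the gene end, for all 4 H2Bub1 libraries, for the 9361 genes of at least 5 kb (left) and the 1304 genes over 100 kb (right) in both KO lists. On the left the KO MEF curve runs above the KO mESC curve through most of the gene body, 50.1% against 36.2% in the tenth part, and ends below it, 19.4% against 23.2%.

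The unbroken reach of H2Bub1 was measured as the distance from the TSS to the end of the peak that held the position 500 bp into the gene. Among genes of at least 5 kb it could be measured in both KO lists at 7626, and the values for the peaks as called refer to these genes. The median reach was 4.42 kb (4.27 to 4.54) in Atxn7l3-/- mESCs and 8.97 kb (8.74 to 9.23) in Atxn7l3-/- MEFs, and it was longer in MEFs at 73.7% of the genes (72.7 to 74.7). In mESCs the median varied little with gene length, with 4.54 kb in genes of 5 to 20 kb and 3.45 kb in genes above 100 kb. In MEFs it went from 5.91 kb to 24.7 kb over the same classes. Of these genes, 46 had a reach of over 50 kb in mESCs and 396 in MEFs, and the peak ran to the end of the gene at 480 and 654. Reach depends on whether neighbouring peaks were called as a single domain. When peaks less than 3000 bp apart were joined, a setting chosen after seeing the data, the medians were 7.63 kb and 10.96 kb and the MEF reach was longer at 60.9% of the genes.

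Single genes show these domains. The widest KO mESC peak, at chr8:117255296-117418351, was 163 kb long and lay on Cmip, which encodes an adaptor protein, and 98.3% of it was also covered in KO MEFs. Next were peaks on Dab2ip, a Ras GTPase-activating protein (135 kb, 64.2% covered in MEFs), Nxn, a thioredoxin-family oxidoreductase (128 kb, 97.5%), Agap1, an Arf GTPase-activating protein (123 kb, 99.3%), and Rptor, a subunit of mTORC1 (96.1 kb, 99.8%). The widest mESC domains were therefore also domains in MEFs, in 4 of 5 almost throughout. The widest KO MEF peak, at chr15:53102030-53347903, was 246 kb long and lay on Ext1, a heparan sulfate polymerase, and 22.9% of it was covered in KO mESCs. The next lay on Maml2, a Notch coactivator (232 kb, 0% covered in mESCs, also over the gene record Gm17571), Efna5, an ephrin (217 kb, 0.759%), Igf1r, a growth factor receptor (215 kb, 41.4%), and Asap1, an Arf GTPase-activating protein (212 kb, 31.8%). The widest MEF domains thus had less than 50% of their length covered in mESCs.

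Ext1 (chr15:53064038-53346159, minus strand) was covered to 19.7% in KO mESCs and 86.9% in KO MEFs, from WT values of 5.06% and 29.9%. Its H2Bub1 was split into 29 peaks in KO mESCs and 2 in KO MEFs, while WT MEFs had 32. The unbroken reach on Ext1 was 13.1 kb in KO mESCs and 244 kb in KO MEFs. Cmip (chr8:117257064-117459430, plus strand) was covered to 88.8% in KO mESCs and 81.3% in KO MEFs (WT 74.7% and 62.6%), with reaches of 161 kb in KO mESCs and 160 kb in KO MEFs. On Cmip the 2 KO libraries were alike, whereas on Ext1 they differed by 67.2 percentage points. Long reaches were also found at Efna5 (1.49 kb in KO mESCs and 214 kb in KO MEFs), Igf1r (10.1 and 213 kb) and Rbms1, which encodes an RNA-binding protein (1.70 and 200.3 kb). Usp7, a deubiquitylase, had the opposite difference, with a reach of 86.6 kb in KO mESCs, none measurable in KO MEFs and covered shares of 91.3% and 34.6%.

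**Figure D4:**
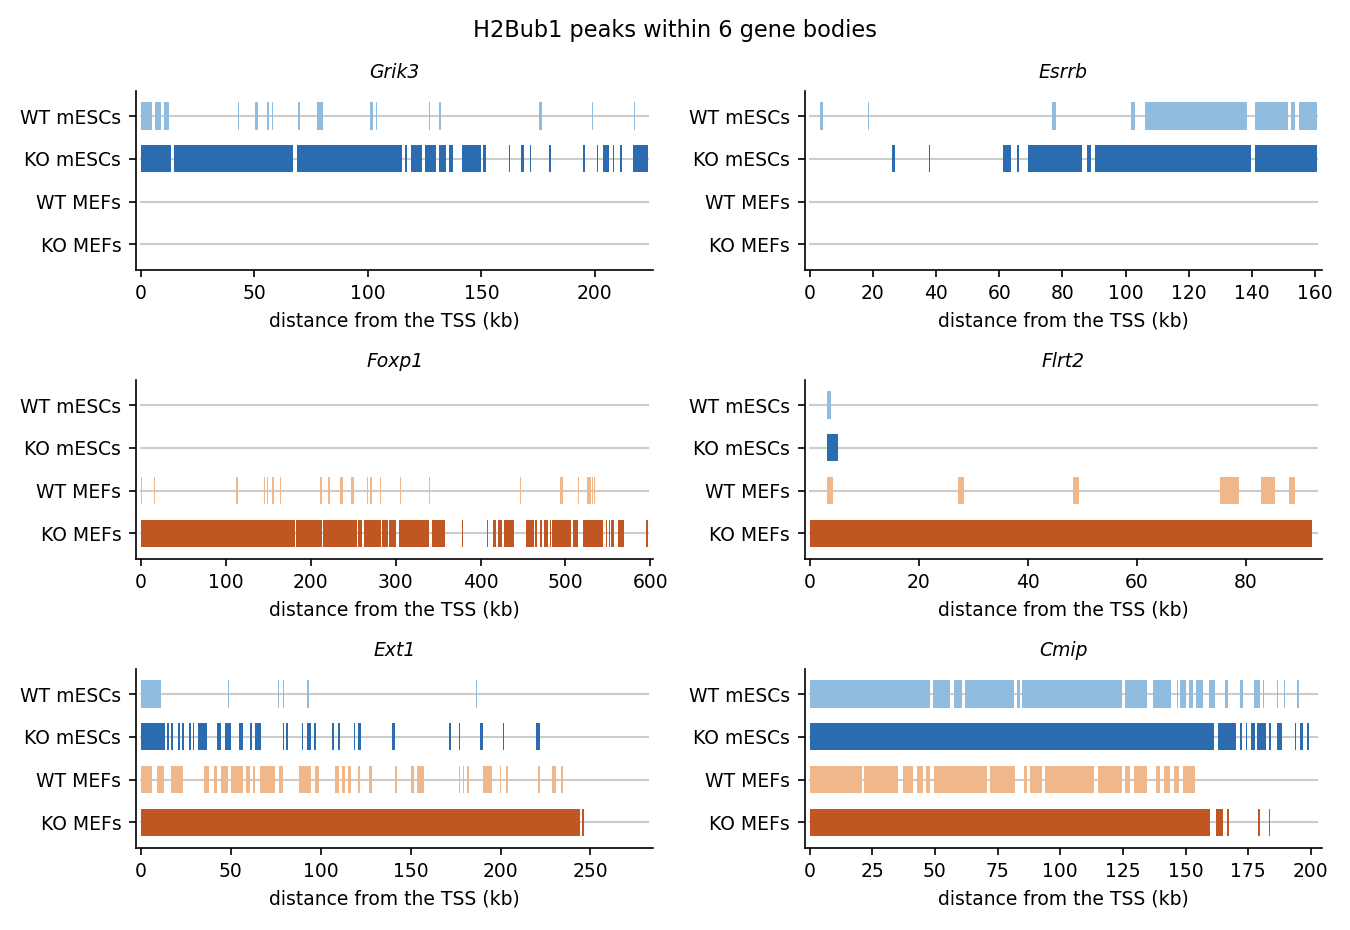
H2Bub1 peaks along 6 genes (distance from the TSS in kb, 1 row for each of the 4 H2Bub1 libraries). Filled blocks are peaks. Grik3 and Esrrb have peaks in the mESC libraries alone and Foxp1 in the MEF libraries alone, Flrt2 is filled by 1 peak in KO MEFs, Ext1 has 29 peaks in KO mESCs and 2 in KO MEFs, and Cmip has wide peaks in all 4.

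Among the genes with H2Bub1 in KO mESCs only, Cdh4, a cadherin, had the most covered bases (181 kb, 39.6% of the gene), followed by Grik3 (151 kb, 67.6%), Casz1, a zinc finger transcription factor (113 kb, 75.0%), and St6galnac3, a sialyltransferase (104 kb, 19.8%). Grik3 (chr4:125490700-125714173, plus strand), whose CG-rich promoter is printed above, was covered to 67.6% in KO mESCs, 9.72% in WT mESCs and 0% in both MEF libraries. Esrrb (chr12:86361117-86521628, plus strand), a nuclear receptor of the pluripotency network, was covered to 57.1% in KO mESCs, mostly over the 3′ part of its annotated body, to 32.8% in WT mESCs and to 0% in both MEF libraries. The others among the first 10 were Rab11fip4, Btbd11, Col18a1, Ppp2r2c and Rtn4rl1, with 31.7% to 97.8% of the gene covered in KO mESCs, and each of the 10 also had H2Bub1 in WT mESCs and none in WT MEFs. Over all 2454 genes of this class, 66.4% carried H2Bub1 in WT mESCs and 1.18% in WT MEFs. The typical gene of the class had little of the mark, with a median covered share of 11.1% and a median length of 1.61 kb.

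Among the genes with H2Bub1 in KO MEFs only, Foxp1, a forkhead transcription factor (chr6:98925338-99522721, minus strand), had the most covered bases. It was covered to 0% in both mESC libraries, 7.04% in WT MEFs and 75.5% (451 kb) in KO MEFs, with a Pol II promoter peak of 15.6-fold in KO MEFs and none in KO mESCs. Rbms3 had 394 kb covered in KO MEFs (37.2%), Maml2 310 kb (75.2%) and Fbxl7, an F-box protein, 262 kb (73.6%). The others among the first 10 were Gm20696, which overlaps Foxp1, Cdk14, Rcan2, Plcl1, Gpr39 and Samd4, with 37.7% to 96.5% of the gene covered in KO MEFs. Rcan2, a calcineurin regulator, Plcl1, a phospholipase C-like protein, and Gpr39, a zinc-sensing receptor, were at 0% in WT MEFs. Over all 821 genes of this class, 20.8% carried H2Bub1 in WT MEFs, 18.1% in WT mESCs, and the median covered share in KO MEFs was 21.1%. The 10 genes of this class ran from 197 kb (Gpr39) to 1057 kb (Rbms3), and those of the mESC class from 74.0 kb (Rtn4rl1) to 527 kb (St6galnac3). These ranges overlap, and both sets were picked by covered bases, which favours long genes.

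The count of genes in KO mESCs only exceeded that in KO MEFs only at the 1 bp call, and the order depended on the call. With peaks of a −log10 q of at least 3 the counts were 1007 and 1930, and with at least 10% of the gene body covered they were 1695 and 2010. The order was kept with equal numbers of peaks (1531 and 1276), and with equal covered length the excess in mESCs was far larger (4162 and 297). Split into 3 groups of equal size by gene G+C, they were 284 and 322 in the G+C-poorest group, 718 and 285 in the middle group and 1452 and 214 in the G+C-richest group.

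Of the genes of at least 5 kb in both lists, those with the largest differences towards mESCs were G+C-rich. Prr7 was covered to 99.4% in KO mESCs and 3.98% in KO MEFs, from 49.0% and 0% in WT. Nanos3, a germ cell RNA-binding protein, was covered to 100% and 5.88% (WT 54.4% and 0%), and Tcf7, a transcription factor of Wnt signalling, to 95.7% and 2.25% (WT 72.6% and 0%). The further genes of this group were BC030867, Nrtn, a neurotrophic ligand, Chtf18, a clamp loader subunit, Recql4, a DNA helicase, and Cbx7, a Polycomb protein, with 90.9% to 100% covered in KO mESCs and 3.14% to 11.5% in KO MEFs. The 8 gene bodies had a G+C share of 50.5% (Cbx7) to 59.8% (Nrtn). Towards MEFs, Flrt2 was covered to 2.21% in KO mESCs and 99.1% in KO MEFs (WT 0.875% and 11.4%), and in KO MEFs a single peak spanned 92.2 kb from the TSS. Spred1, an inhibitor of Ras signalling, was covered to 3.15% in KO mESCs and 99.8% in KO MEFs (WT 2.78% and 48.8%), and Lmo4, a LIM-only transcription cofactor, to 3.11% and 100% (WT 1.53% and 11.5%). Mdfic, Glt28d2, Gpr183, an oxysterol receptor, Fignl2 and Tshz1 completed the group, with 95.4% to 100% covered in KO MEFs and 0.121% to 4.41% in KO mESCs. Their G+C share was 37.9% (Spred1) to 46.3% (Tshz1), with Fignl2 (54.4%) the exception. Both sets had nearly filled gene bodies in 1 cell type and at most 2.06 kb (Flrt2) of H2Bub1 in the other.

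The genes with the most bases covered in both lists at once included Tead1, a transcription factor of the Hippo pathway (83.3% in KO mESCs and 85.9% in KO MEFs), Msi2, an RNA-binding protein (57.7% and 67.5%), and Tns3, a focal adhesion protein (78.6% and 86.5%). Gm20388 and Fgfr2 ranked above them through annotation records of 4435 and 2961 kb that span other genes. The targeted gene Atxn7l3 was covered to 62.5% in KO mESCs and 65.3% in KO MEFs, against 100% and 22.0% in WT. Of the genes displayed in the study, Acly, the enzyme that makes cytosolic acetyl-CoA, differed most between the KO lists (70.1% in mESCs and 9.03% in MEFs). Klhl11 was covered to 100% in both, and Zpr1 (55.0% and 49.2%) and Bud13 (54.1% and 36.8%) each had the larger share in mESCs.

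Pol II peaks within 1 kb of the TSS were present at 6672 genes in KO mESCs (32.1%) and 10890 genes in KO MEFs (52.3%). Nearly all such genes carried H2Bub1, 97.8% (97.4 to 98.1) in mESCs and 93.3% (92.9 to 93.8) in MEFs. Of the genes without such a peak, 45.2% (44.4 to 46.1) carried H2Bub1 in KO mESCs and 11.3% (10.7 to 12.0) in KO MEFs. Where KO mESCs alone carried H2Bub1, 19.1% of the genes had a Pol II promoter peak in mESCs and 17.2% had one in MEFs. Where KO MEFs alone carried it, 74.3% had a Pol II promoter peak in MEFs and 8.40% had one in mESCs. With the peaks of each pair of lists cut to equal covered length the order of these classes turned, with 28.2% of genes in mESCs only and 15.8% of genes in MEFs only having a Pol II promoter peak of their own cell type. The KO mESC Pol II list had 11632 autosomal peaks against 31552 in KO MEFs, so its promoter calls were also the sparser, and the part of this in the difference was not tested.

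The cell types were checked against marker genes. All 10 mESC markers carried H2Bub1 in KO mESCs, with a median covered share of 96.6%, and Pou5f1, Sox2, Nanog, Zfp42 and Utf1 were covered to 100%. In KO MEFs 8 of the 10 were at 0%, and Klf4 (100%) and Tfcp2l1 (7.82%) were covered. Of the 10 MEF markers, 9 carried H2Bub1 in KO MEFs, from 15.7% of Col3a1 to 80.9% of Thy1, and Postn was at 0% in all 4 libraries. In KO mESCs Col1a1 (10.4%) and Pdgfrb (5.48%) were covered and the other 8 were at 0%. Most markers of each label were thus covered in its own library and at 0% in the other.

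Some genes of other cell types were covered in the KO MEF library, though no list clearly more often than all genes. Of 22 epithelial and mesothelial genes, 10 carried H2Bub1 in KO MEFs (54.3% of all genes did) and none did in WT MEFs (31.7% of all genes), and their summed covered length was 198 kb in KO mESCs and 245 kb in KO MEFs, against 130 kb and 0 kb in WT. The covered ones included the mesothelial genes Wt1 (79.1%), Upk3b (100%), Bnc1 (100%), Msln (92.1%) and Upk1b (58.3%), each with a Pol II promoter peak in KO MEFs. Of the epithelial genes, Epcam, Cdh1, Krt8, Krt18 and Krt19 were at 0%, while others of the list were covered. The named genes thus do not divide the list into covered mesothelial and uncovered epithelial members. Of 12 genes of primitive endoderm and trophoblast, 4 were covered in KO MEFs and 1 in WT MEFs (116 kb and 3.66 kb in sum), among them Gata6 (100% and 0%) and Gata4 (62.3% and 0%). Blood and macrophage genes were covered at 6 of 10 in KO MEFs, near the 54.3% of all genes, and 1 of 10 in WT MEFs (47.4 kb and 0.701 kb in sum), with the globin gene Hbb-y at 0%. Of 10 endothelial genes only Tek was covered in KO MEFs (1.63%), of 9 neural genes only Nes (31.2%) and of 10 muscle and heart genes only Tnnt2 (10.2%). In KO mESCs 15 of the epithelial and mesothelial genes, 5 of the primitive endoderm and trophoblast genes, 6 of the blood and macrophage genes, 6 of the endothelial genes, 4 of the neural genes and 2 of the muscle and heart genes were covered. Over all genes the KO mESC share was 62.1%, which the shares of the epithelial and mesothelial (68.2%), the blood and macrophage and the endothelial genes were close to. The endothelial genes Eng (88.3%) and Pecam1 (52.2%) were covered there, and also in WT mESCs (47.4% and 24.6%). A different make-up of the KO MEF culture and a change within its cells cannot be told apart in these bulk libraries.

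The pluripotency genes were the group with the clearest mESC side. All 32 measured members carried H2Bub1 in KO mESCs and 12 did in KO MEFs, with medians of 83.4% and 0%, and 23 of the 32 (71.9%, against 8.88% of all genes) were at least 25 points higher in mESCs. Pou5f1, the central transcription factor of pluripotency, was covered to 100% in KO mESCs, 87.7% in WT mESCs and 0% in both MEF libraries. Sox2, its partner, was covered to 100% in both mESC libraries and to 0% in both MEF libraries. Lin28a, an RNA-binding protein, was the only member at least 25 points higher in KO MEFs (10.0% and 40.2%). Several transcription factor genes of the list were not particular to mESCs, as Klf2 (100% in both KO libraries), Klf5 (74.5% and 75.2%) and Mycn (100% and 83.5%) show. Among 21 genes of DNA methylation, germline and early embryo, 17 (81.0%) carried H2Bub1 in KO mESCs and 7 (33.3%) in KO MEFs, and the intervals (58.1 to 94.6% and 14.6 to 57.0%) include the shares over all genes (62.1% and 54.3%). Tet1, a 5-methylcytosine dioxygenase, had the largest difference towards mESCs (79.2% and 0.459%), whereas its relative Tet3 had the largest towards MEFs (44.1% and 88.4%).

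The fibroblast lists had the larger medians in MEFs. Of 34 mesenchymal transcription factors, 22 (64.7%) carried H2Bub1 in KO mESCs and 24 (70.6%) in KO MEFs, against 62.1% and 54.3% of all genes. Both intervals (46.5 to 80.3% and 52.5 to 84.9%) include the share over all genes. The medians were 4.02% and 48.3%, and 19 (55.9%, against 15.5% of all genes) were at least 25 points higher in MEFs. Tcf21, a bHLH factor of mesenchyme, was covered to 0% in both mESC libraries and in WT MEFs and to 100% in KO MEFs. Foxc2, a forkhead factor, was at 0% in both mESC libraries, 49.2% in WT MEFs and 95.6% in KO MEFs. Osr2 (44.7% and 0%) and Msx2 (27.0% and 0%) were the 2 members at least 25 points higher in KO mESCs. Of 37 fibroblast matrix genes, 19 were covered in KO mESCs and 30 in KO MEFs, with medians of 0.226% and 32.5%. Timp3, an inhibitor of matrix metalloproteinases, was covered to 2.27% in KO mESCs and 84.9% in KO MEFs (WT 0% and 8.51%). The collagen genes Col1a1 and Col5a1 were covered to 54.0% and 36.6% in KO MEFs and were not lower in WT MEFs (60.7% and 39.9%). Of all 42 autosomal collagen genes, 20 were covered in KO mESCs, 15 had a peak in KO MEFs and 7 were shared. The KO MEF share (35.7%, 21.6 to 52.0) was below that of all genes (54.3%), and the interval of the KO mESC share (47.6%, upper bound 63.6%) includes that of all genes (62.1%). The largest differences among the collagens were those of Col18a1 (75.0% and 0%) and Col4a2 (5.41% and 65.2%).

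Of 32 contractile and actin cytoskeleton genes, 25 (78.1%) were covered in KO mESCs and 30 (93.8%) in KO MEFs, with medians of 34.0% and 64.4%. Over all genes 62.1% and 54.3% were covered, and the 95% interval of the KO mESC share includes the former. Cald1, which encodes the actin-binding caldesmon, had the largest difference (10.8% in KO mESCs and 90.2% in KO MEFs, from WT values of 0.618% and 16.3%). Lima1, an actin-bundling protein, was the only member at least 25 points higher in mESCs (71.9% and 35.8%). Of 31 genes of TGF-beta and growth factor signalling, 24 (77.4%) were covered in KO mESCs and 30 (96.8%) in KO MEFs, with medians of 12.2% and 69.7%. The KO mESC interval (58.9 to 90.4%) again includes the share over all genes. In this group 18 (58.1%, against 15.5% of all genes) were at least 25 points higher in MEFs and none in mESCs (8.88% of all genes). The group is one of long genes, with a median of 69.4 kb against 17.6 kb over all genes. Long genes in general had the larger share in MEFs. The largest differences were at the ligand genes Tgfb1 (0% and 100%) and Bmp4 (0% and 96.2%), and a further ligand gene, Tgfb2, was covered to 0% and 69.7%. The receptors Tgfbr2 (3.02% and 75.1%) and Egfr (6.63% and 73.2%) had a small domain in KO mESCs. The inhibitory SMAD gene Smad7 was covered to 100% in both.

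**Figure D5:**
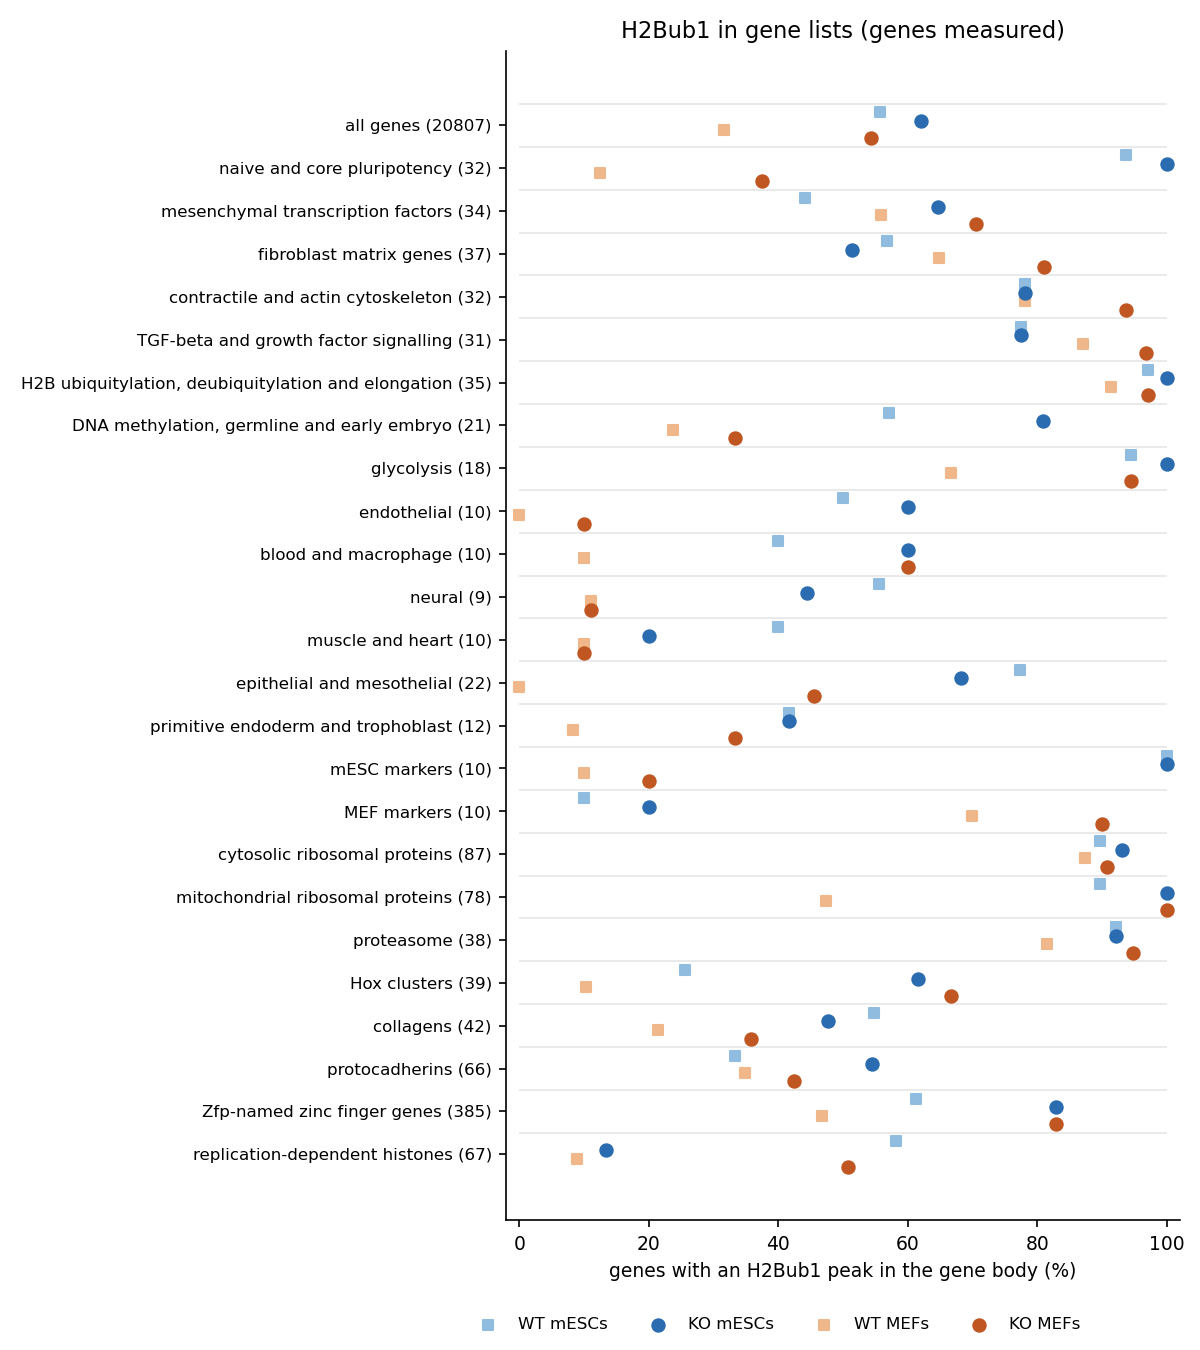
Percentage of the genes of each list with an H2Bub1 peak in the gene body (x axis), in the WT (squares) and KO (circles) libraries of mESCs (blue) and MEFs (orange), with the number of genes measured in brackets. The pluripotency genes lie apart by cell type (32 of 32 in KO mESCs and 12 in KO MEFs), the H2B ubiquitylation group lies together (35 and 34 of 35), and the replication-dependent histone genes are the only list shown in which KO mESCs lie far below both WT mESCs and KO MEFs (9 of 67 against 39 and 34).

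Of 35 genes of the H2Bub1 machinery and of transcription elongation, all carried H2Bub1 in KO mESCs and 34 in KO MEFs, where 62.1% and 54.3% of all genes did, with medians of 53.7% and 54.8%. At least 25 points higher were 10 (28.6%, against 15.5% of all genes) in MEFs and 4 (11.4%, against 8.88%) in mESCs. Within the group, Usp7 (91.3% and 34.6%) and the ligase gene Rnf40 (79.4% and 45.7%) were higher in mESCs, whereas Wac, which binds RNF20/RNF40 (9.03% and 83.1%), Atxn7l1 (8.50% and 80.1%) and Eny2, the other activator of the deubiquitylases (6.44% and 68.2%), were higher in MEFs. Usp22 was covered to 71.5% and 46.7%. The group median thus hid differences of over 30 points in either direction.

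Housekeeping groups were mostly covered in both KO lists, where 62.1% and 54.3% of all genes were. The 87 autosomal cytosolic ribosomal protein genes had medians of 99.3% in KO mESCs and 100% in KO MEFs, with 81 and 79 covered. All 78 mitochondrial ribosomal protein genes were covered in both, with medians of 57.3% and 69.1%, while 70 were covered in WT mESCs and 37 in WT MEFs, against 55.7% and 31.7% of all genes. The 38 proteasome genes had medians of 50.8% and 77.9%, and Psmd6 (22.7% and 93.0%) and Psmd3 (100% and 43.5%) differed most. The 18 glycolysis genes had close medians of 59.9% and 56.5%, with the larger share in mESCs at 13 and in MEFs at 5. At least 25 points higher were 5 (27.8%, against 8.88% of all genes) in mESCs and 1 (5.56%, against 15.5%) in MEFs. Among those higher in mESCs was the glucose transporter gene Slc2a3 (56.2% and 9.54%).

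Clustered gene families behaved unlike each other. Of 39 Hox genes, which encode the patterning homeodomain factors, 24 carried H2Bub1 in KO mESCs and 26 in KO MEFs (62.1% and 54.3% of all genes), and 10 and 4 did in the WT libraries (55.7% and 31.7% of all genes). At least 25 points higher were 19 (48.7%, against 15.5% of all genes) in MEFs and 6 (15.4%, against 8.88%) in mESCs. The largest differences towards MEFs included Hoxa4, Hoxb5 and Hoxd8 (each 0% and 100%). Those towards mESCs included Hoxc12 (100% and 0%) and Hoxb13 (96.1% and 0%). The members were not counted by their position in the clusters. Hox genes lie close together and in part overlap, so that a peak can cover several. Of 385 zinc finger genes with a Zfp symbol, 319 were covered in each KO list and 292 in both, with medians of 18.6% and 42.6%, and 140 (36.4%) were at least 25 points higher in MEFs. Of 66 protocadherin genes, many of which share overlapping records, 36 (54.5%) and 28 (42.4%) were covered, against 62.1% and 54.3% of all genes. By covered share they leaned to MEFs, with 26 (39.4%, against 15.5% of all genes) at least 25 points higher in KO MEFs and 0 in KO mESCs, and their summed covered length was 653 kb in KO mESCs and 1976 kb in KO MEFs. The chemosensory receptor and defensin families were nearly free of the mark, with 6 of 1127 olfactory receptor genes covered in KO mESCs and 1 in KO MEFs, 1 of 328 vomeronasal receptor genes in each, and 0 of 64 defensin genes in either.

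Of 67 replication-dependent histone genes, H2Bub1 covered 9 (13.4%) in KO mESCs and 34 (50.7%) in KO MEFs, where 62.1% and 54.3% of all genes were covered. In WT it covered 39 (58.2%) in mESCs and 6 (8.96%) in MEFs, against 55.7% and 31.7% of all genes. The KO MEF and WT mESC shares thus lay near those of all genes, and the KO mESC and WT MEF shares lay below them. Their summed covered length was 5.95 kb and 34.7 kb in the KO libraries and 27.8 kb and 3.67 kb in the WT libraries. Pol II peaks lay at the promoters of 60 in KO mESCs and 59 in KO MEFs, where 32.1% and 52.3% of all genes had one. Their median length was 0.539 kb, so a peak within 1 kb of the TSS can count for neighbouring genes as well. These short genes have near-identical copies, and how reads matching several places were counted is not given in the sources used here, so the values of single copies are uncertain.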

How the data were processed

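ChIP was carried out with antibodies against H2Bub1 and Pol II in the presence of N-ethylmaleimide, which blocks deubiquitylases. Per the submitters' processing notes the authors used bcl2fastq 2.17.1.14, Bowtie 1.0.0 and MACS2 2.1.1.20160309 on mm10. The control library and the calling thresholds are not given in the sources used here. The deposited peak lists give each peak's fold, a linear ratio over the local background. They also give −log10 p and −log10 q values deposited by the authors. A score column, and in the Pol II lists a summit offset (an other unit), were deposited by the authors too and were not used. For the quantification in the study, H2Bub1 was scaled by size factors over intergenic regions and Pol II by mapped reads, and how this entered the peak calls is not given.

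Peaks on the 19 autosomes were set against protein-coding genes of GENCODE M21 (GRCm38, the assembly of mm10). Overlapping gene records each count a shared peak. G+C shares and promoter windows were read from the same genome, and printed promoters came from RefSeq GRCm38.p6, where 15686 of 20780 symbols had an entry and 13110 an entry starting within 500 bp of the annotated start. Intervals (95%) are exact Clopper-Pearson for percentages and binomial order-statistic for medians, for counting error only. Scripts ran in Python 3.11.15 (pandas 2.3.3, numpy 2.4.6, matplotlib 3.10.9, scipy 1.17.1) and were tested on simulated data.

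The comparison and the gene lists were chosen with earlier results of these data known. Named genes were the list members with the largest share or difference, the 10 genes with the most covered bases in each KO list alone, the 8 genes of at least 5 kb with the largest difference of share in each direction, the genes of the 5 widest peaks and of the 5 longest reaches of each list, the 5 genes with the most bases in both, and Atxn7l3 with the autosomal genes the study displayed. Some genes that this rule takes in are not reported here. Further list members, and Tgfb2, Tgfbr2 and Egfr among them, were chosen after their values were seen. Psmc3ip and Col4a3bp were left out of the proteasome and collagen lists, which match by symbol. Alternatives were a stricter q, equal numbers of peaks, equal covered length, joined peaks, isolated genes, a call at 10% of the gene body, bodies without their first 1000 bp, a peak overlap of 50%, a narrower promoter, and chromosomes X and Y included.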

Additional observations from a re-analysis of the deposited data

Results flagged for a closer look

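At 71 genes the covered share was at least 25 percentage points lower in KO than in WT mESCs and at least 25 points higher in KO than in WT MEFs. No gene showed the opposite pair of changes. With 1 library in each group the difference between the cell types was not tested. Over all genes the share was higher in KO than in WT at 11283 genes in mESCs and 11200 in MEFs. Of the 71, 14 were replication-dependent histone genes. Hist1h1c, a linker histone gene, was at 100% in WT and 0% in KO mESCs, and at 0% in WT and 95.8% in KO MEFs. H2-T23, a nonclassical MHC class I gene, had the same mESC values and 100% in KO MEFs against 0% in WT. Atxn7l3 itself was among the 71 (KO values 62.5% and 65.3%, WT values 100% and 22.0%), and the deleted exons lie within its measured body. In all, 59 of the 71 were under 10 kb, the median length was 4.15 kb and 50 had no H2Bub1 in WT MEFs.

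Peaks outside the autosomes were also present and entered none of the values above. On chromosome X there were 1079 peaks (2.37 Mb) in KO mESCs and 759 peaks (3.80 Mb) in KO MEFs. On chromosome Y there were 4 peaks (0.00231 Mb) in KO mESCs and 0 in KO MEFs.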

How the results depend on the processing

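No paired analysis was possible because each group has 1 library, which also leaves no replicate to omit. Without replicates or read depth, a difference between the KO lists cannot be told apart from a difference between libraries. Including chromosomes X and Y moved no value past its interval, and joining peaks less than 1000 bp apart changed nothing, since the smallest gap was 1089 bp in mESCs and 1193 bp in MEFs. The cause of the shifts below was not tested, except where the setting itself equalises a quantity.

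With a −log10 q of at least 3, the MEF to mESC length ratio was 2.22, genes in mESCs only and MEFs only were 1007 and 1930 (ratio 0.522, below 1), 69.2% of genes had the larger share in MEFs, the ratio of last to first parts was 0.238 in mESCs and 0.244 in MEFs (order turned), the mESC and MEF peak overlaps were 81.9% and 63.3%, and Pol II promoter peaks lay at 40.9% of mESC-only and 86.6% of MEF-only genes. With equal numbers of peaks, these were 1531 and 1276 genes, 65.7%, overlaps of 69.1% and 43.5%, and Pol II at 26.6% and 56.7%. With equal covered length, which sets the ratio to 1.00, they were 4162 and 297 genes, 57.2%, overlaps of 38.6% and 94.9%, Pol II at 28.2% and 15.8% (order turned), and a farther MEF reach at 76.4%. In isolated genes, 1078, 435 and 3515 genes were in mESCs only, MEFs only and both, 71.3% had the larger share and 80.5% the farther reach in MEFs. With the call at 10% of the body, 2010 genes were in MEFs only (ratio of mESCs only to MEFs only 0.843), 57.8% had the larger share in MEFs, and Pol II lay at 30.0% and 86.7%. Without the first 1000 bp, Pol II lay at 81.0% of MEF-only genes, and with the promoter from −100 to +300 bp at 15.4% and 70.2%. An overlap of 50% of the peak gave 50.1% and 31.9%.

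Chosen after seeing the data, joining peaks less than 3000 bp apart gave 53.8% with the larger share and 60.9% with the farther reach in MEFs, and overlaps of 54.5% and 63.4%. By gene G+C, the larger share was in MEFs at 92.0%, 65.9% and 35.5% of genes from the poorest to the richest group, and the ratio of genes in mESCs only to MEFs only was 0.882 in the poorest. Of 159 alternative values, 69 moved past their interval or by over 1.5 times, among them those of the orders that turned between 2 such values, and a further 5 themselves crossed to the other side of 1 or of 50%, the length ratio by construction.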
